A study of Homo sapiens with 6 samples.

Results

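Hyaluronan is a long sugar polymer that cells spin out through the plasma membrane into the matrix around them. In U2OS cells, the genes that make, cut, bind and sense it were examined together with pentraxin 3 (PTX3), a secreted protein that helps to build hyaluronan-rich matrix, and they made up 10 of the 19937 genes in the count table. They were CEMIP, CEMIP2 (TMEM2 in older annotation), HYAL2, HYAL3, HAS2, HAS3, CD44, HMMR, PTX3 and TNFAIP6, each found by the Ensembl identifier that pairs with its symbol. The members were chosen by their part in hyaluronan biology with the fold changes of shSQLE against shControl in these same libraries already known. Their values in that contrast are therefore a description. No p-value is printed for a member, and where a member is said to be past an adjusted p of 0.05, this gives its place in the fit over all genes and is no evidence about the members.

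U2OS is a human line derived from an osteosarcoma, a tumour of bone. The 6 libraries of poly(A) RNA came from cells that stably carried a lentiviral pGIPZ hairpin and had been selected with puromycin at 2 μg/mL: 3 libraries from cells with a hairpin against SQLE, the squalene epoxidase of cholesterol synthesis (shSQLE), and 3 from cells with a scrambled hairpin (shControl). The comparison asks which transcripts differ once SQLE is silenced. A single hairpin against SQLE was taken forward from 4, and the sources used here do not name it, so that an effect of SQLE loss and an effect of that hairpin cannot be told apart. The labels do not tie libraries to separate cultures, and p-values and SDs measure the spread between these libraries, which may be technical.

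Hyaluronan is made at the cell surface by the synthases HAS1, HAS2 and HAS3 from 2 activated sugars of the cytosol, and it is broken down outside the cell, at its surface and in lysosomes. Fragments and intact chains are read by receptors such as CD44, and secreted proteins tie the chains into cables and coats. Cells of connective tissue are known for making much of it.

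SQLE itself had 1349, 1867 and 1924 normalized counts in the shControl libraries, replicate 1 first, and 229, 204 and 219 in shSQLE. Normalized counts were scaled to the mean library size with TMM factors. The log2 fold change of SQLE was -2.98 (standard error, SE, 0.17, Benjamini-Hochberg adjusted p = 0.000299, quasi-likelihood test of edgeR), in keeping with the labels of all 6 libraries. Library totals ranged from 12212378 to 14393292 counts. Of 12450 genes tested, 354 were lower (2.84%) and 46 higher (0.369%) in shSQLE, or 3.21% in all. shControl replicate 1 stood apart from the other control libraries: its counts differed from theirs by 51.3 and 60.8 times the variance of sampling (chi-square per degree of freedom), where the other control pair gave 2.76. In shSQLE, replicates 1 and 2 gave 3.31, while replicate 3 gave 9.44 against replicate 1 and 15.2 against replicate 2. Without shControl replicate 1, 33.9% of genes were called, and with DESeq2 on all libraries 5.16%. Among markers of the labelled line, 7 of 10 had at least 10 counts in every library. The list summed to 52933 to 56956 normalized counts in shControl and to 47553 to 52921 in shSQLE. These sums did not overlap, but only by the narrow gap between 52921 and 52933. VIM, at 112.4% of control in shSQLE, carried most of the sum, while FN1 was at 13.6% (adjusted p = 0.000548 by edgeR), COL1A1 at 63.5% (adjusted p = 0.0452), CDH11 at 72.4% and SPARC at 82.5%, the last pair not past the adjusted p. The part of these lower markers in the members' values was not tested. The osteoblast gene SP7 was at 0 throughout and ALPL and COL1A2 were close to 0. The leukocyte list summed to 9.04 to 12.7 normalized counts in shControl and to 4.11 to 13.7 in shSQLE, with PTPRC and CD3E at 0 in all libraries, and the endothelial list to 12.7 to 17.7 and 4.11 to 8.81, most of it PECAM1. The part of this lower endothelial sum in the members' values was not tested. The epithelial list summed to 7122 to 12663 in shControl and 9061 to 11426 in shSQLE, nearly all of it KRT18. CDH1, KRT5 and KRT19 were near 0, while EPCAM was not. EPCAM had 51.9 ± 1.91 normalized counts in shControl and 68.65 ± 8.75 in shSQLE (SD, n = 3 each). Its groups did not overlap, as in 22.1% of all genes tested, and it was not past the adjusted p. In bulk RNA, fewer cells of a kind and less RNA per cell cannot be told apart.

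Of the 10 members, 9 had enough counts to be tested, and TNFAIP6 had not. CEMIP and HAS2 stood at 9.55% and 9.42% of their control level in shSQLE and PTX3 was 2.18-fold higher, and these 3 were past an adjusted p of 0.05, where 3.21% of all genes were. The other 6 were not past it: CD44 was lower at -0.42 on the log2 scale, and CEMIP2, HYAL2, HYAL3, HAS3 and HMMR had values from 0.26 to 0.73. The median log2 fold change of the 9 was 0.26, with 3 lower and 6 higher, beside -0.01 over the whole tested set (6420 lower, 6030 higher). In 6 of the 9 the normalized counts of the shSQLE and shControl libraries did not overlap, beside 22.1% of all genes tested. Since the contrast chose the members, nothing is read from these counts.

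**Figure D1:**
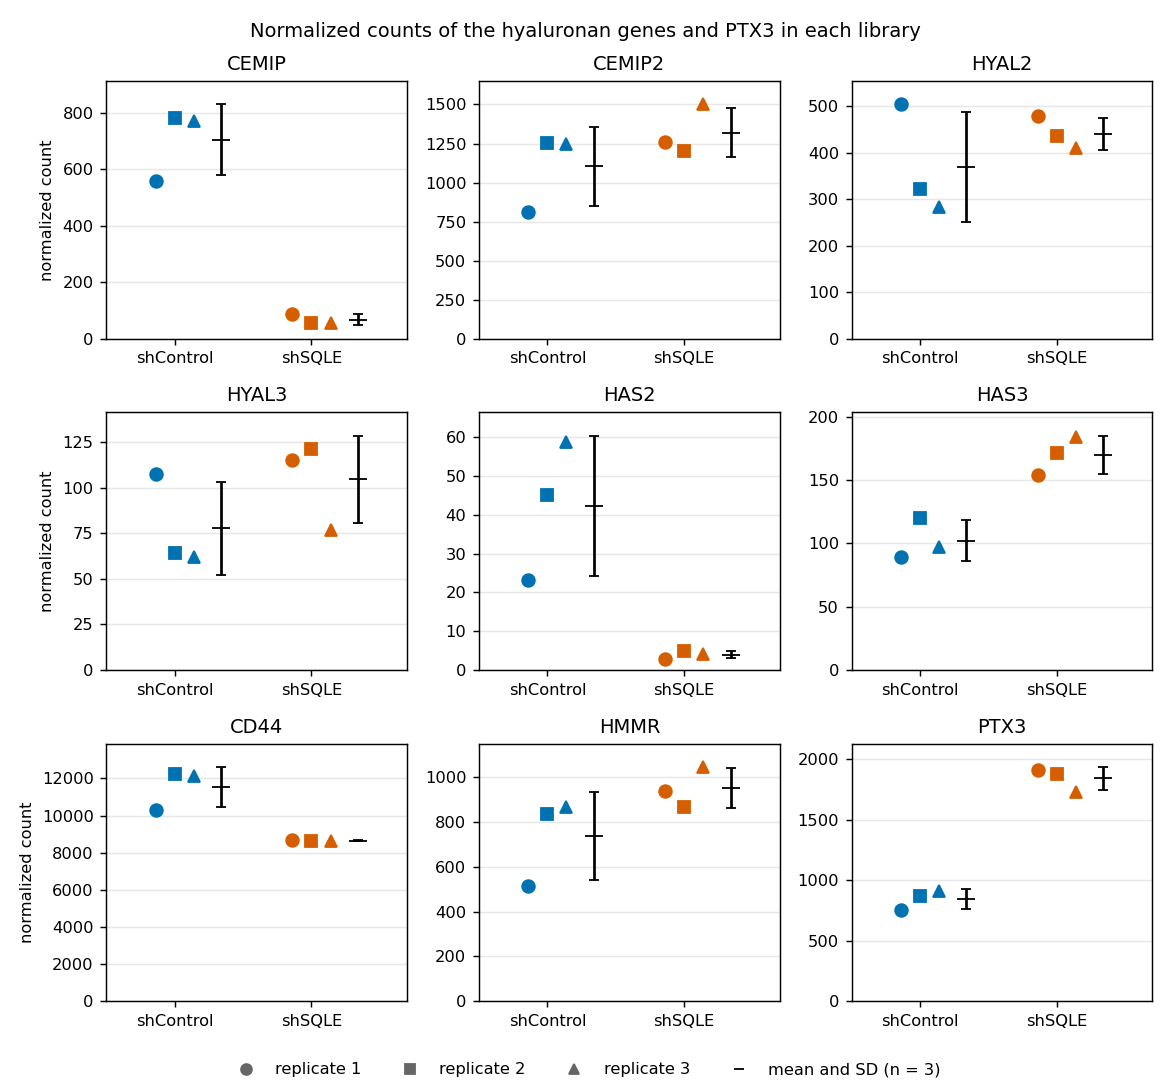
Normalized counts (vertical axes, each from 0) of the 9 tested members in the 3 shControl and 3 shSQLE libraries, with a symbol for each replicate and the mean and SD of each group in black. CEMIP and HAS2 lie far lower in all shSQLE libraries and PTX3 far higher, while HYAL2, HYAL3 and CEMIP2 overlap between groups.

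Among the genes of hyaluronan breakdown, CEMIP (ENSG00000103888, chromosome 15, 80779343 to 80951776, + strand) was the member past the adjusted p. CEMIP, also known as KIAA1199 or HYBID, binds hyaluronan and is needed for its depolymerization by fibroblasts. It had 558.9, 781.3 and 772.0 normalized counts in shControl, replicate 1 first, and 89.1, 57.2 and 55.5 in shSQLE. All 3 shSQLE libraries lay below all shControl libraries, far from the lowest control. The means were 704 ± 126 and 67.3 ± 18.9 (SD, n = 3 each), or 9.55% of control, and the log2 fold change was -3.38 (SE 0.24). Summed over libraries, 2135 counts stood against 203, a ratio of 10.6 with an exact 95% interval of 9.16 to 12.3 that covers counting error only. The log2 fold change stayed between -3.64 and -3.25 when each library was left out in turn. MESD, on the opposite strand, overlaps the annotated span of CEMIP but none of the exons of its canonical transcript, and its log2 fold change was -0.08 (SE 0.12, adjusted p = 0.841 by edgeR). A noncoding gene on the opposite strand, ENSG00000259546, shares 71 nt of canonical exon with CEMIP and is absent from the count table. Whether the counting used the strand is not given in the sources used here.

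The 250 bases before the start of CEMIP and those of PTX3 are shown because these are the members past the adjusted p, 1 lower and 1 higher, that had ample counts. The RefSeq start of CEMIP used here, base 80779370, lies inside the GENCODE span given above, and positions are counted from it. Those 250 bases lie at chr15:80779120-80779369 on the + strand (RefSeq, GRCh38.p14), are written 5′ to 3′, and carry in capitals the matches to 5 short motifs searched on both strands. The TATA box was searched as TATAAA. The CCAAT box was searched by the letters of its name. For the GC box the letters were GGGCGG. The core of the AP-1 site was taken as TGANTCA. The core of the NF-kB site was taken as GGNNNTTCC. No matches overlapped in either window.
CEMIP: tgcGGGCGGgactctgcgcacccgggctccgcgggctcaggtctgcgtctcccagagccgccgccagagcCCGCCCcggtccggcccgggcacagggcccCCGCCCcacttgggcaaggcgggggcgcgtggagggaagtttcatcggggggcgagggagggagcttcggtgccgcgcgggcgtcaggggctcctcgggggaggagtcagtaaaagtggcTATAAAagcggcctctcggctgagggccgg
The stretch was 74.4% G and C. It held the TATA box at -30 to -25 from the RefSeq start, and 10.7% of 35116 promoters held these letters within the same length. The first base of the GENCODE span, 80779343, lies within this TATA match, so that its position holds for the RefSeq start only. The GC box letters occurred 3 times, and 42.6% of promoters held them at least once. The CCAAT, AP-1 and NF-kB letters were not in this window (32.0%, 6.57% and 17.1% of promoters held them). A match is a description of letters, not a site in use. A promoter was found for 9 of the 10 members.

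CEMIP2, a membrane protein related to CEMIP that has been described as a cell-surface hyaluronidase, had 809.5, 1252 and 1247 normalized counts in shControl and 1257, 1203 and 1500 in shSQLE. Its groups overlapped, and shControl replicate 1 was the lowest of the 6 libraries. The log2 fold change was 0.26 (SE 0.19), and 0.08 without shControl replicate 1.

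HYAL2, a hyaluronidase anchored to the cell surface by a lipid, had 503.5, 321.0 and 282.5 normalized counts in shControl and 477.8, 434.7 and 409.1 in shSQLE. Here shControl replicate 1 was the highest of the libraries, and the other control libraries lay below all of shSQLE. The log2 fold change was 0.26 (SE 0.22), and 0.55 without that library. HYAL2 lies on chromosome 3 beside TUSC2 on the same strand, with overlapping annotated spans. TUSC2 had a log2 fold change of 0.13 (SE 0.18, adjusted p = 0.820 by edgeR).

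HYAL3, a close relative for which little activity of its own is known, had 107.4, 64.2 and 61.8 normalized counts in shControl and 115.5, 121.2 and 77.1 in shSQLE. The groups overlapped through shControl replicate 1 again. The log2 fold change was 0.44 (SE 0.27), and 0.73 without that library. HYAL3 shares 193 nt of canonical exon with NAA80 on the same strand, so that reads there cannot be assigned with certainty. NAA80 had a log2 fold change of 0.09 (SE 0.26, adjusted p = 0.922 by edgeR) and IFRD2, whose span also overlaps, 0.32 (SE 0.21, adjusted p = 0.571).

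On a scale per transcript length (TPM, which scales each library to the same sum of transcripts), CEMIP gave 14.3%, 20.7% and 21.4% of the summed level of the 4 depolymerase genes in shControl replicates 1, 2 and 3, and 2.28%, 1.56% and 1.48% in shSQLE. The summed level itself was 74.5 ± 7.73 TPM in shControl and 71.0 ± 5.78 TPM in shSQLE (SD, n = 3 each), a difference within the spread of the libraries. By library it was 65.6, 79.4 and 78.5 TPM in shControl, replicate 1 first, and 71.6, 64.9 and 76.4 TPM in shSQLE. The groups overlapped only through shControl replicate 1, and the other control libraries lay above every shSQLE library. CEMIP2 and HYAL2 thus carried most of the sum in both groups.

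Among the synthases, HAS2 (ENSG00000170961), which makes the longest chains in many mesenchymal cells, had 23.1, 45.2 and 58.9 normalized counts in shControl and 2.94, 4.93 and 4.11 in shSQLE. The raw counts behind these were 20, 50 and 60 against 3, 5 and 4, so that shSQLE lay near the floor of 3 counts in every library. No shSQLE library reached the control range. The means were 42.4 ± 18.1 and 3.99 ± 1.00 (SD, n = 3 each), and the log2 fold change was -3.38 (SE 0.47). The ratio of summed counts, 130 against 12, was 10.9 with an exact 95% interval of 6.03 to 21.6 for counting error. HAS2 fell out of the set past the adjusted p when any 1 shSQLE library was left out, at log2 fold changes from -3.56 to -3.20. It lies on chromosome 8, 3.36 Mb from SQLE, the silenced gene.

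HAS3, which makes shorter chains, had 88.9, 120.3 and 97.1 normalized counts in shControl and 153.7, 171.5 and 184.0 in shSQLE. Every shSQLE library lay above every control library. Its log2 fold change of 0.73 (SE 0.17) ran from 0.64 to 0.87 when each library was left out, and it was past the adjusted p with DESeq2 and without shControl replicate 1 but not by edgeR on all 6 libraries. CHTF8 and DERPC overlap its span on the opposite strand, CHTF8 at 2.94 to 13.6 normalized counts and DERPC at 0 in all libraries. HAS1 had no count in any library.

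Set side by side per transcript length, HAS3 gave 79.6%, 72.9% and 62.5% of the HAS2 and HAS3 level in shControl replicates 1, 2 and 3, and 98.1%, 97.2% and 97.8% in shSQLE. The 2 synthases together came to 5.10 ± 1.57 TPM in shControl and 5.74 ± 0.88 TPM in shSQLE (SD, n = 3 each), which differed by less than their spread. By library the sum was 3.29, 6.08 and 5.93 TPM in shControl, replicate 1 first, and 5.03, 5.47 and 6.72 TPM in shSQLE. Only shControl replicate 1 lay below every shSQLE library, and the other control libraries lay within the shSQLE range.

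CD44, the main receptor for hyaluronan and the most abundant member, had 10321, 12214 and 12122 normalized counts in shControl and 8678, 8652 and 8636 in shSQLE. On this scale the groups did not overlap, and the shSQLE libraries lay within a very narrow range. The mean normalized counts were 11552 ± 1067 and 8655 ± 21.1 (SD, n = 3 each), or 74.9% of control. The log2 fold change of CD44 was -0.42 (SE 0.10). Per transcript length the groups overlapped. There CD44 had 234.2, 347.1 and 357.2 TPM in shControl, replicate 1 first, and 215.2, 207.2 and 238.3 TPM in shSQLE. CD44 was past the adjusted p with DESeq2 and without shControl replicate 1, where the log2 fold change was -0.49, and not by edgeR on all 6 libraries. Counts per gene do not separate the many splice forms of CD44.

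HMMR (RHAMM) binds hyaluronan at the surface and holds the mitotic spindle together inside dividing cells. It had 512.7, 834.7 and 864.2 normalized counts in shControl and 939.0, 866.4 and 1045 in shSQLE. The groups were separated by a gap of little more than 2 counts, and shControl replicate 1 lay far below the rest. Its fitted log2 fold change was 0.36 (SE 0.20), and 0.16 without that library. Per transcript length the groups overlapped, at 20.95, 42.71 and 45.86 TPM in shControl and 41.94, 37.35 and 51.94 TPM in shSQLE.

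PTX3 (ENSG00000163661, chromosome 3, 157436850 to 157443633, + strand) is a long pentraxin, a soluble pattern recognition protein that crosslinks hyaluronan decorated with heavy chains. It had 756.4, 871.8 and 908.4 normalized counts in shControl and 1914, 1875 and 1733 in shSQLE. The groups lay far apart, and each was narrow. The means were 845.5 ± 79.3 and 1841 ± 95.4 (SD, n = 3 each), and the log2 fold change was 1.12 (SE 0.12), with a range of 1.05 to 1.19 when each library was left out. VEPH1, which spans PTX3 on the opposite strand, had a log2 fold change of 0.23 (SE 0.16, adjusted p = 0.598 by edgeR), and no canonical exon of VEPH1 overlaps one of PTX3.

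The 250 bases before the start of PTX3 lie at chr3:157436600-157436849 on the + strand (RefSeq, GRCh38.p14) and are shown beside those of CEMIP, with the same motifs in capitals.
PTX3: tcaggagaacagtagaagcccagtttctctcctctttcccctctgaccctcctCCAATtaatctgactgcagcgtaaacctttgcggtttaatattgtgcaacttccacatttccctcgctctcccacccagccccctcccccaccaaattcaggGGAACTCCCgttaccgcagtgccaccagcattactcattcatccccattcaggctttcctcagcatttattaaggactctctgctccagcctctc
The stretch was 51.6% G and C. It held CCAAT at -197 to -193 and, on the opposite strand, the NF-kB core letters at -95 to -87. The TATA, GC box and AP-1 letters were not in this window. Within these 250 bases PTX3 and CEMIP thus shared none of the motif letters searched. How often a pair of promoters shares none was not counted, so that nothing is read from this.

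TNFAIP6 (TSG-6) transfers heavy chains from inter-alpha-trypsin inhibitor to hyaluronan, the step on which PTX3 acts in known matrices. It had 0, 2 and 3 counts in shControl and 0, 0 and 0 in shSQLE, at or under the floor in every library, and no fold is given. A difference was not detectable at this depth. The genes of the heavy chains and of bikunin were all at that floor too: 7 of 7 (ITIH1 to ITIH6 and AMBP) had at most 3 counts in every library, and 4 of them had none. In these libraries PTX3 transcripts were abundant while those of its partners in the heavy chain complex were at or near 0.

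Per transcript length, the shControl means ran in the order CD44 (312.8 ± 68.3 TPM), PTX3 (66.0 ± 14.6), HMMR (36.5 ± 13.6), HYAL2 (27.8 ± 4.64), CEMIP2 (26.7 ± 9.08), CEMIP (14.2 ± 4.18), HYAL3 (5.86 ± 1.03), HAS3 (3.58 ± 0.91), HAS2 (1.51 ± 0.78) and TNFAIP6 (0.18 ± 0.17; SD, n = 3 each). The means of HMMR, HYAL2 and CEMIP2 did not differ beyond their spread, and the ranges of CEMIP2 and CEMIP touched. Within each shControl library, though, HMMR lay above CEMIP2 and CEMIP2 above CEMIP. HYAL2 lay above HMMR and CEMIP2 in replicate 1 only. CEMIP gave 36.6%, 34.3% and 34.1% of CEMIP and CEMIP2 together in shControl replicates 1, 2 and 3. In shSQLE, CEMIP moved from place 6 to place 8, at 1.26 ± 0.33 TPM, and PTX3 stayed at place 2 with 134.7 ± 4.62 TPM. With coding length in place of transcript length, 6 of the 10 kept their place in shControl, with CEMIP2 and HYAL2, and HAS3 and HYAL3, changing places with each other.

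The spread within a group was not used in choosing the members. The SD of log2 CPM was larger in shControl than in shSQLE in 8 of 9 members, all but CEMIP, as it was in 79.4% of all genes tested. The medians over all genes were 0.27 in shControl and 0.14 in shSQLE. HAS2 had the widest control spread of the members, 0.66, beside a median of 0.40 for genes within 0.5 log2 units of its level, and HYAL2, HYAL3 and HMMR had 0.44, 0.43 and 0.42, beside 0.27, 0.29 and 0.24. PTX3 and CD44 were the most even controls, both at 0.14 beside 0.23 and 0.21. In shSQLE, CD44 had an SD of 0.0035, against 0.091 for genes of its level, and CEMIP the largest, 0.37 against 0.14.

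shControl replicate 1 lay outside the range of the other 5 libraries in 5 of the 9 members and in 64.8% of all genes tested. Its log2 difference from the mean of replicates 2 and 3 was 0.74 for HYAL2 and 0.75 for HYAL3, whose canonical transcripts are 60.1% and 60.6% G and C. It was -1.09 for HAS2 and -0.73 for HMMR, at 37.2% and 36.2% G and C. CEMIP2 had -0.63, CEMIP -0.47, HAS3 -0.28, CD44 -0.24 and PTX3 -0.23. Over all genes tested, the median difference was -0.56 for transcripts of 30.7% to 41.8% G and C and 0.53 for those of 57.1% to 76.0%, and it was 0.47 for transcripts of 207 to 2117 nt and -0.43 for those of 5328 nt and more. The part of base composition or length in the members' fold changes was not tested.

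**Figure D2:**
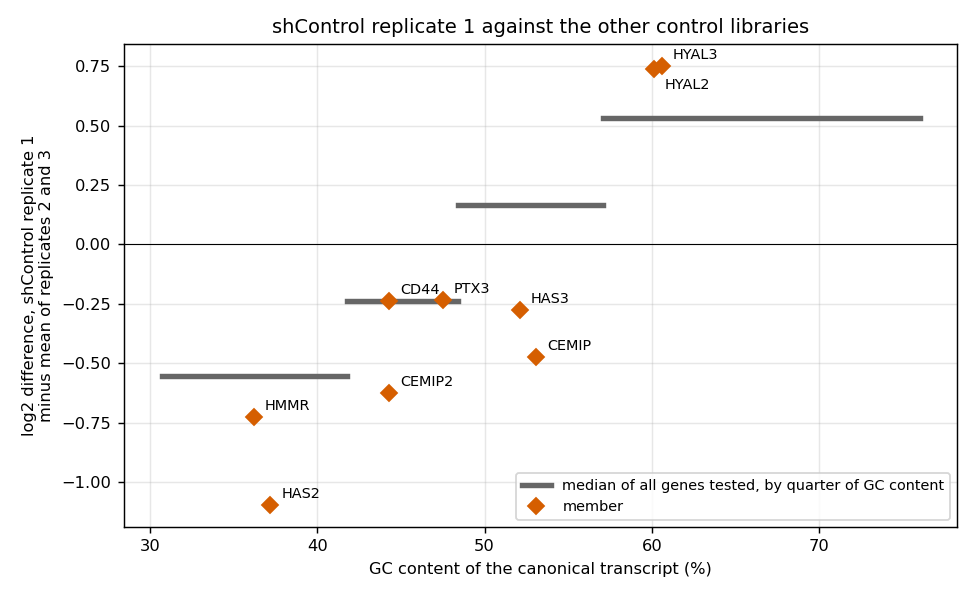
Log2 difference of shControl replicate 1 from the mean of shControl replicates 2 and 3 (vertical axis) against the G and C content of the canonical transcript in percent (horizontal axis), for the 9 tested members (diamonds) and as medians of all genes tested within 4 ranges of G and C content (bars). HYAL2 and HYAL3 sit at 0.74 and 0.75, and HAS2 at -1.09, and the medians climb from -0.56 to 0.53.

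A wider list of 58 other genes was read in the same fit. It holds genes of hyaluronan synthesis, breakdown and binding, partners of CD44, and also spindle partners of HMMR and relatives of PTX3 that are not hyaluronan genes themselves. Of these, 34 were tested, 1 was lower (NPTXR) and 1 higher (CCNB1) past an adjusted p of 0.05, and 32 did not pass, against 3.21% of all genes. Both that passed came from the spindle partners and the pentraxin relatives. In the other 7 lists 0 genes passed by edgeR, 4 were at an unadjusted p under 0.05, and 2 passed with DESeq2. Over all 34 tested genes of the wider list, the median log2 fold change was 0.01, with 16 lower and 18 higher. Of these 34 genes, 10 were at an unadjusted p under 0.05, where 14.7% of all genes tested reached it.

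None of the 7 genes that supply the activated sugars passed the adjusted p (0 genes by edgeR, 2 at an unadjusted p under 0.05, and UGDH and GFPT1 with DESeq2). UGDH, which makes the glucuronic acid donor, had 699.8 ± 104 normalized counts in shControl and 477.0 ± 18.9 in shSQLE (SD, n = 3 each), which is -0.55 on the log2 scale (SE 0.14, adjusted p = 0.0913 by edgeR). GFPT1, the first and rate-limiting enzyme of the hexosamine pathway, had a log2 fold change of -0.69 (SE 0.20, adjusted p = 0.146). In both genes the groups did not overlap, as in 22.1% of all genes, and for GFPT1 the gap was narrow, 921.5 in shControl replicate 1 against 919.9 in shSQLE replicate 3. HEXA, a subunit of a lysosomal enzyme that takes part in the last steps of breakdown, had a value of -0.05 on the log2 scale (SE 0.15, adjusted p = 0.926 by edgeR). HYAL1 and HYAL4 had too few counts to be tested and SPAM1 had none.

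Of the other receptors, LYVE1, STAB2 and TLR2 had no count, and LAYN, a C-type lectin that binds hyaluronan, had a log2 fold change of 0.34 (SE 0.13, adjusted p = 0.258 by edgeR), with STAB1 at -0.51 (SE 0.44, adjusted p = 0.686). The 7 partners and sheddases of CD44 had values from -0.26 to 0.41, and none passed by edgeR or DESeq2 (1 at an unadjusted p under 0.05). NF2, the merlin protein that competes with ezrin, radixin and moesin for the tail of CD44, had 0.41 (SE 0.16, adjusted p = 0.276), and ADAM17, a sheddase, had -0.26 (SE 0.15, adjusted p = 0.506).

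Of the 7 genes listed as partners of HMMR on the mitotic spindle, 1 was higher past the adjusted p by edgeR on all 6 libraries. The other 6 did not pass, and 4 of the 7 were at an unadjusted p under 0.05. Their log2 fold changes ran from 0.01 to 0.46, with a median of 0.29 beside 0.36 for HMMR. As for HMMR, shControl replicate 1 was the lowest of the 6 libraries in TPX2, AURKA, BARD1 and CDK1. It was the highest of the 6 in DYNLL1 and the highest control in PLK1. Without it TPX2, AURKA, PLK1 and CCNB1 passed, where 33.9% of all genes did. With DESeq2 on all libraries AURKA and CCNB1 passed, where 5.16% did. The part of this library in these values was not tested. CCNB1, the cyclin of mitotic entry, was the gene that passed by edgeR on all 6 libraries. Its normalized counts rose from a mean of 3133 ± 87.9 to one of 4299 ± 97.5 (SD, n = 3 each). Its log2 fold change was 0.46 (SE 0.09, adjusted p = 0.0399 by edgeR). With 1 library left out it passed in 1 of 6 fits (largest adjusted p = 0.215 by edgeR), and it did not pass with library size only, with no filter or with the replicate block.

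Of the 10 link proteins and hyaluronan-binding proteoglycans, 4 were tested and none passed (0 genes by edgeR, 0 at an unadjusted p under 0.05, 0 by DESeq2). HAPLN3 had -0.32 (SE 0.31, adjusted p = 0.728 by edgeR), and HABP4, an intracellular protein, had -0.07 (SE 0.17, adjusted p = 0.914). Among other proteins with a pentraxin domain, the short pentraxins CRP and APCS were at 0 in all libraries. NPTXR, the membrane-bound neuronal pentraxin receptor, fell in normalized counts, from 194.6 ± 5.44 in shControl to 103.3 ± 4.52 in shSQLE (SD, n = 3 each), with a log2 fold change of -0.91 (SE 0.13, adjusted p = 0.0118 by edgeR), the opposite direction to PTX3. With 1 library left out it passed in 2 of 6 fits (largest adjusted p = 0.0861 by edgeR). NPTX1, a secreted neuronal pentraxin, named after its values were seen, had 0.65 (SE 0.16, adjusted p = 0.0798 by edgeR).

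**Figure D3:**
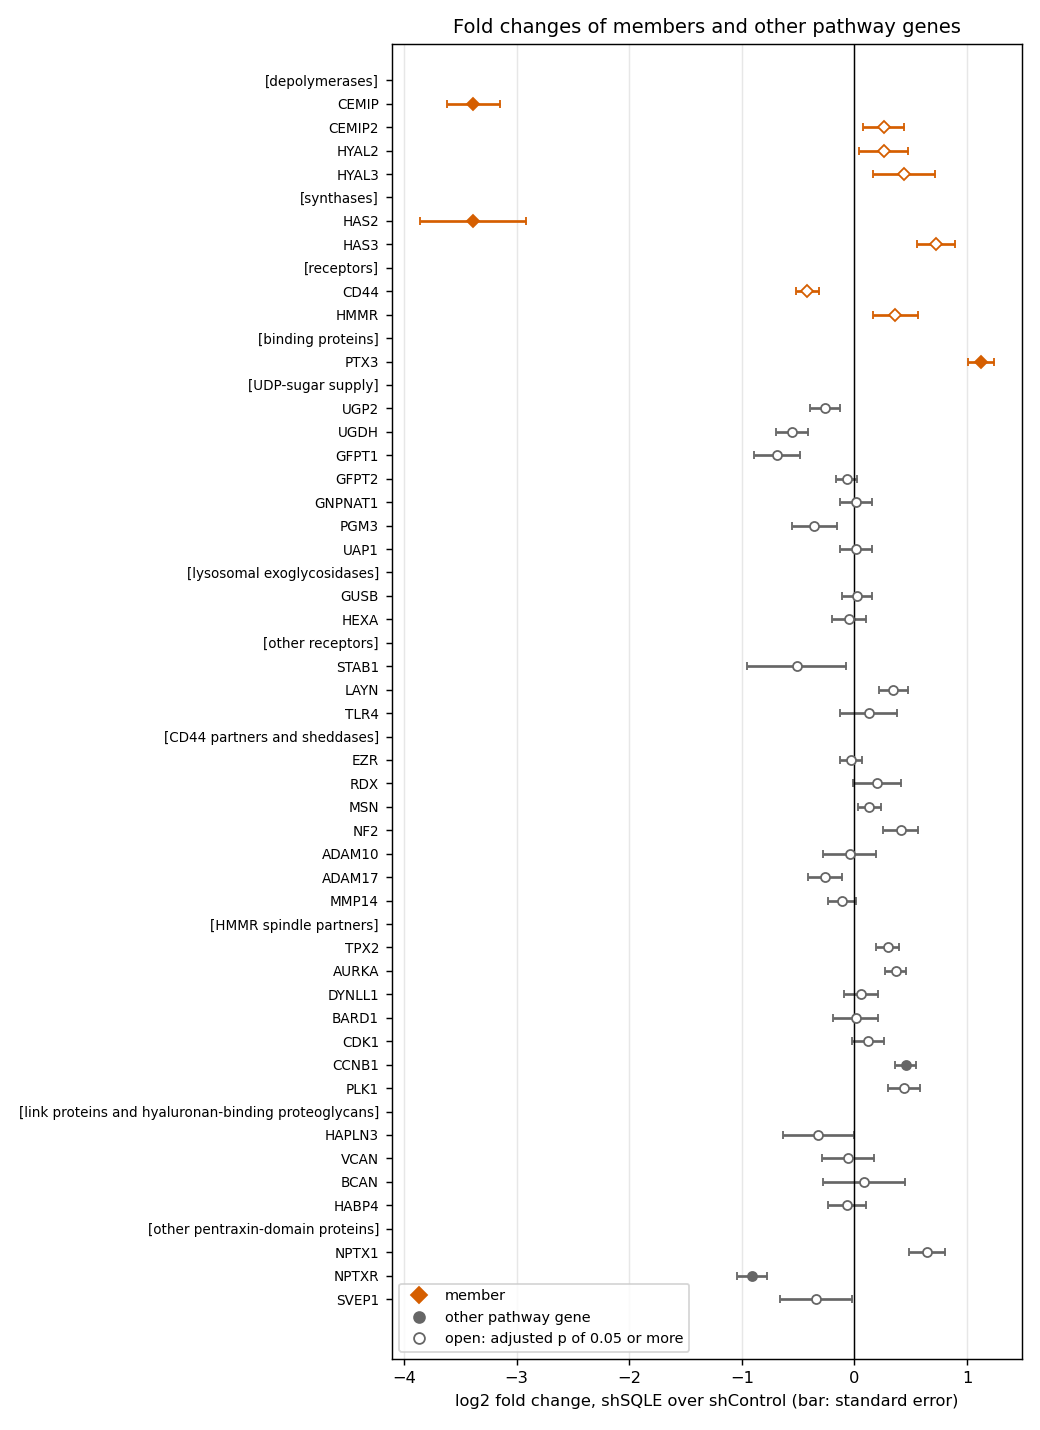
Log2 fold change of shSQLE over shControl (horizontal axis) with its SE, for the 9 tested members (orange diamonds) and tested genes of the wider list (grey circles) in their groups; filled marks are past the adjusted p of 0.05. CEMIP and HAS2 sit at -3.38 and PTX3 at 1.12, while the genes shown of the wider list stay between -0.91 and 0.65.

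The genes whose profile over the 6 libraries was most like that of CEMIP, by the root mean square difference of log2 CPM after centring each gene, were PTGS2 (0.26), SQLE itself (0.28) and FN1 (0.36), out of 9872 genes with a mean of at least 100 normalized counts. PTGS2, the inducible cyclooxygenase, had 1179, 1811 and 1845 normalized counts in shControl and 228.2, 173.5 and 207.6 in shSQLE. FN1, fibronectin, had 6745, 9189 and 9074 against 1132, 918.6 and 1350. Those most like PTX3 were IL1A (0.075), WARS2 (0.11) and JDP2 (0.15). IL1A, a cytokine, had 707.9, 819.3 and 849.5 normalized counts in shControl and 2009, 1826 and 1828 in shSQLE, close to PTX3 in level and in each library. WARS2, the mitochondrial tryptophanyl-tRNA synthetase, had 1052, 1317 and 1336 against 2377, 2352 and 2316. JDP2, a repressor of AP-1, had 99.3, 93.1 and 113.8 against 222.3, 204.0 and 168.6. These profiles share the contrast and the libraries, and the likeness is a description over 6 libraries.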

How the data were processed

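Poly(A) RNA of U2OS cells was sequenced as pairs of 151 bp in 6 libraries, 3 shSQLE and 3 shControl, grouped by the genotype given in the sample labels. Per the submitters' processing notes, fastp 0.20.0, STAR 2.7.9a, the build hg38 and featureCounts 2.0 were used. The authors deposited raw counts for each gene, with no normalization. The annotation release, the strand setting and the treatment of reads that map to several genes are not given in the sources used here, so that overlapping genes and close relatives are less certain. As with CEMIP, noncoding genes on the opposite strand that are absent from the count table share canonical exon with CD44 (CD44-AS1, 63 nt) and HMMR (HMMR-AS1, 113 nt).

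Counts of genes passing filterByExpr (12450 of 19937) were scaled by TMM and tested with edgeR 4.0.16 (R 4.3.3, limma 3.58.1) by the quasi-likelihood test on the group alone, with p-values adjusted over all genes (Benjamini-Hochberg, 0.05). The standard error is the log2 fold change divided by the square root of F. Alternatives were DESeq2 1.42.0, other scalings and filters, the replicate number as a block, and leaving out each library. TPM used canonical transcript lengths of GENCODE v44, and log2 CPM a prior count of 2. Symbols came from GENCODE v44, in which 32 identifiers were absent. Promoters came from RefSeq. Intervals cover counting error only, and 3 counts were taken as the floor. The tests were tried on simulated data.

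The members, the lists and the tests were chosen with earlier results of these data known. Named beside the members are SQLE, genes of the count table overlapping a member, and genes absent from it that share a member's canonical exons. Also named are genes of the wider lists past the adjusted p (or up to 2 with the smallest p in a list with none), and the 3 genes nearest in profile to CEMIP and to PTX3. Outside this rule, cell type markers, listed genes at 0 or too low to test, NPTX1, and the spindle genes other than CCNB1 were named after their values were seen. Some items of the lists are not reported here by name.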

Additional observations from a re-analysis of the deposited data

How the results depend on the processing

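No member changed direction in any alternative, which the choice of members on this contrast makes no sign of stability. With edgeR 400 genes were past the adjusted p and with DESeq2 714, and the number ranged from 109 to 4264 when 1 library was left out. Among the members it was 3, and 5 with DESeq2 (CD44 and HAS3 added), with a range of 2 to 7 when 1 library was left out: 7 without shControl replicate 1 (CD44, HAS3, HYAL2 and HYAL3 added) and 2 without any 1 shSQLE replicate (HAS2 lost). HAS2 did not pass a minimum of 10 counts per library. Among the wider list it was 2, and 6 with DESeq2, 1 with library size only and 1 with no filter. It ranged from 0 to 13 when 1 library was left out, with 0 by edgeR without shControl replicate 2 or any 1 shSQLE replicate, where 6 to 9 of these genes were at an unadjusted p under 0.05. With coding length, 6 of 10 members kept their place in the order of levels. The cause of these shifts was not tested.

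Libraries of the 2 groups share replicate numbers. The deviations of same-numbered libraries from their group means correlated at 0.138, -0.433 and 0.543. shControl replicate 1 correlated best with shSQLE replicate 2 (0.542). With 3 libraries per group, the deviations from a group mean are not independent. These values therefore cannot show whether the numbers pair the libraries. With the replicate block, 396 genes, 3 members and 1 gene of the wider list were past the adjusted p. Depth limits HAS2 in shSQLE and TNFAIP6 in all libraries.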
